A study of Mus musculus with 10 samples.

Results

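The genes described here encode the cell surface receptors for 2 signalling lipids, lysophosphatidic acid (LPA) and sphingosine-1-phosphate (S1P), together with Enpp2, which encodes autotaxin, the secreted enzyme that makes LPA. The list of 10 genes was fixed by name, and it was chosen by the measured difference between the groups below, because Lpar genes were higher together in the Gata4 samples. Of the 10 listed genes, 9 were measured under a feature with their symbol, among 23111 named genes in all: 5 LPA receptor genes, Lpar1, Lpar2, Lpar3, Lpar4 and Lpar6, and 4 S1P receptor genes, S1pr1, S1pr2, S1pr3 and S1pr4. Lpar5, another LPA receptor gene, was not among the 10 listed genes, and no value of it is given here. Enpp2 was not analysed here, because none of the named features carried its symbol. Since the group difference chose the genes, their differences are given as a description, without a p-value, and counts of those past the threshold below describe the set only.

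LPA and S1P are small lipids of blood plasma and tissue fluid that act on receptors coupled to heterotrimeric G proteins. LPAR1, LPAR2 and LPAR3 belong with the S1P receptors to the EDG family, while LPAR4 and LPAR6 belong to a separate family close to the P2Y nucleotide receptors. In endothelium, signalling by S1PR1 through Gi and Rac tightens cell junctions, whereas receptors that couple to G12 and G13, such as S1PR2, loosen them, and in the mouse LPAR4 and LPAR6 take part in the formation of the vessel network.

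All samples were total RNA of bEnd3, a mouse brain endothelial cell line immortalised by polyoma middle T antigen, measured on Affymetrix arrays. In 5 samples the cells carried a lentiviral vector in which the EF1α promoter drives a codon-optimized cDNA of mouse Gata4 linked to mCherry and puromycin resistance; in the 5 EV (empty vector) samples the vector held mCherry and the resistance gene only, and cells of both groups had been selected with puromycin. GATA4, a DNA-binding factor, acts in the embryonic heart, gut and liver endothelium, and by its title the study asks how it shapes organ-specific endothelium. The labels call the samples of a group biological replicates without saying whether each came from its own transduction, so any p-value reflects only how far these samples spread. In such bulk RNA, fewer expressing cells and less RNA per cell cannot be told apart.

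Values are RMA expression values on the log2 scale, where a step of 1 is a 2-fold difference, and the arrays share 1 distribution with a median of 4.16. No detection call exists. As a guide to background, 1071 olfactory receptor genes, which endothelial cells are not known to use, had mean levels with a median of 2.81 and a 95th percentile of 3.67. A gene is said below to rise or fall where its Benjamini-Hochberg adjusted p was under 0.05 in a limma fit over all 23111 genes and 10 samples. By that rule 25.6% of all genes differed, 12.4% being higher and 13.2% lower in the Gata4 samples, and for 21.1% the groups did not overlap. The Gata4 feature rose by 0.34 ± 0.09 (SE, limma, adjusted p = 0.017), with overlapping groups and no call in an exact rank-sum test (adjusted p = 0.11), and the codon-optimized sequence need not be read by this feature. With 5 samples per group, that rank-sum test called only genes whose groups did not overlap, 4865 in all. Where groups overlap, a missing call in it therefore restates the overlap. On the second principal component, which held 5.26% of the variance, EV samples 1 and 2 (-12.8 and -14.4) stood apart from EV samples 3 to 5 (5.55 to 13.3), with the Gata4 samples between -5.04 and 4.90. The values without those 2 samples are given beside some of the results below.

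The cells carried endothelial markers: the list mean of 10 such genes lay between 11.50 and 11.68 in every sample. Single markers did differ, with 3 higher and 3 lower in the Gata4 group, together 60.0% beside 25.6% of all genes. The largest differences each way were 1.53 for Tek and -1.045 for Cldn5, which the list mean does not show. Markers of pericytes and smooth muscle, fibroblasts, leukocytes and epithelium had list means of at most 4.04 in any sample, near the median of all features. Of these 30 markers of other cell types, 4 rose and 4 fell; the largest differences were falls of Cd68 by 1.22, from 8.53, and of Pdgfra by 1.01. The leukocyte list mean was 3.70 to 3.85 in the Gata4 samples and 3.90 to 4.04 in the EV samples, which do not overlap, but without Cd68 the other 6 markers overlapped (3.11 to 3.26 against 3.12 to 3.27). Ptprc and Epcam, which mark leukocytes and epithelium, had group means of at most 3.03, inside the olfactory receptor range. Acta2, a smooth muscle actin gene, had 6.36 in the Gata4 and 7.12 in the EV samples (limma, adjusted p = 0.025), and the keratin gene Krt8 had 5.74 and 5.49 (adjusted p = 0.075). These single markers were picked after their values were seen, and their part in the results below was not tested.

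The sequences just before the annotated start are shown for the 3 receptor genes with the largest differences, Lpar4, Lpar2 and Lpar6, since these genes were higher together and the transgene encodes a DNA-binding factor. Each line gives the 250 bases before the start on the gene's own strand, 5′ to 3′, from RefSeq (GRCm38.p6): chrX:106920375-106920624 (+) for Lpar4, chr8:69822315-69822564 (+) for Lpar2 and chr14:73237641-73237890 (+) for Lpar6. Capitals mark forms of the site that GATA factors bind: AGATAA with its variant AGATAG, as well as TGATAA with its variant TGATAG, on either strand.
Lpar4: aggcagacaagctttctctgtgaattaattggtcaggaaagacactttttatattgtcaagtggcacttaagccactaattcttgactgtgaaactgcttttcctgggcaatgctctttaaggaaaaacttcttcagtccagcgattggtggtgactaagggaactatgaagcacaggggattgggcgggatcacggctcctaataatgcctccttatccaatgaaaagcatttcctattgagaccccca
Lpar2: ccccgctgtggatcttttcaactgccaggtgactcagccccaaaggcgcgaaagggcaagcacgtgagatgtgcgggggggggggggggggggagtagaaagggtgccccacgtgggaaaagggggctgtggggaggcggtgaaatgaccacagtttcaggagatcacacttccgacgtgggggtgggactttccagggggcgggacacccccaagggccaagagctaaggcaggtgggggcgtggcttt
Lpar6: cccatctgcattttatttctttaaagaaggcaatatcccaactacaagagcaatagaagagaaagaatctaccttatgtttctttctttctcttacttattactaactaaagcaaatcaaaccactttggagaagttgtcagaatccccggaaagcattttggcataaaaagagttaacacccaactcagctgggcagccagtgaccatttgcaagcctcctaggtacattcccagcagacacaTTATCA
Lpar6 held 1 such word, TTATCA, which reads as a listed form on the other strand and ends at the base before the start, and the windows of Lpar4 and Lpar2 held 0. Of the 10 windows listed for 8 of the 9 receptor genes (3 of them for Lpar1), this was the 1 window with a word, beside 26.5% of all 32851 windows of the same length. The windows differed in base composition. Those of Lpar4 and Lpar6 had 43.6% and 39.2% G and C with 3 and 1 CpG, while that of Lpar2 had 64.4% with 11 CpG, against medians of 52.4% and 6 over all windows. A word in a window is a match of letters and not a measured site.

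Among the LPA receptor genes of the list, 4 of 5 were past the threshold, all higher in the Gata4 samples, and the median difference was 0.76, beside -0.01 over all genes. This contrast chose the genes, so nothing is read from that count beside the 12.4% of all genes that were higher.

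Lpar4, which encodes a receptor of the P2Y-related family that couples to G12 and G13 and to Gs, had the largest difference of the set. Its values in EV samples 1 to 5 were 8.28, 8.22, 8.30, 8.10 and 8.10, and in Gata4 samples 1 to 5 they were 9.74, 9.77, 9.81, 9.82 and 9.76. Every Gata4 sample lay above every EV sample, with a gap of 1.44 between the groups. The means were 9.78 ± 0.03 and 8.20 ± 0.10 (SD, n = 5 each), a difference of 1.58 ± 0.05 (SE) or 2.99-fold. Leaving out any 1 sample moved the difference between 1.55 and 1.60 only.

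Lpar6 encodes the other P2Y-related LPA receptor of the list, which couples to G12 and G13 and in humans is required for hair growth. It measured 10.72, 10.63, 10.76, 10.78 and 10.78 in EV samples 1 to 5 and 11.53, 11.48, 11.51, 11.45 and 11.52 in Gata4 samples 1 to 5. The groups were again apart, by 0.67, and each was tight. The means of 11.50 ± 0.03 and 10.74 ± 0.06 (SD, n = 5 each) differed by 0.76 ± 0.05 (SE), or 1.70-fold.

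Lpar2, an EDG family receptor gene, stood at 3.71, 3.76, 3.74, 3.76 and 3.88 in EV samples 1 to 5, close above the 95th percentile of olfactory receptor genes. In Gata4 samples 1 to 5 it reached 4.87, 4.56, 4.60, 5.33 and 4.99. All Gata4 samples were higher, but they spread over 0.77 and sample 4 stood highest. The means of 4.87 ± 0.31 and 3.77 ± 0.07 (SD, n = 5 each) differed by 1.10 ± 0.12 (SE), or 2.14-fold, and by 0.98 to 1.17 when any 1 sample was left out. 

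Lpar1 encodes the most widely expressed LPA receptor, which couples to Gi, Gq and G12 and G13. It measured 5.87, 6.09, 5.70, 5.57 and 5.54 in EV samples 1 to 5 and 5.91, 6.16, 6.12, 6.31 and 6.02 in Gata4 samples 1 to 5. The groups overlapped, since EV sample 2 lay above Gata4 samples 1 and 5. The difference was 0.35 ± 0.11 (SE), 1.27-fold, from 5.75 ± 0.23 to 6.10 ± 0.15 (SD, n = 5 each), and it was 0.50 without EV samples 1 and 2. Lpar1 was no longer past the threshold in 6 of the 10 fits that left out 1 sample, those without EV sample 3, 4 or 5 or Gata4 sample 2, 3 or 4, with differences of 0.30 to 0.43 over all 10. Lpar3, the third EDG family LPA receptor gene, measured 2.94 to 3.26 in the EV samples (median 3.15) and 3.06 to 3.27 in the Gata4 samples (median 3.12). Both groups lay inside the olfactory receptor range, with a difference of 0.00 ± 0.07 (SE), so that no level above background was measured for it.

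**Figure D1:**
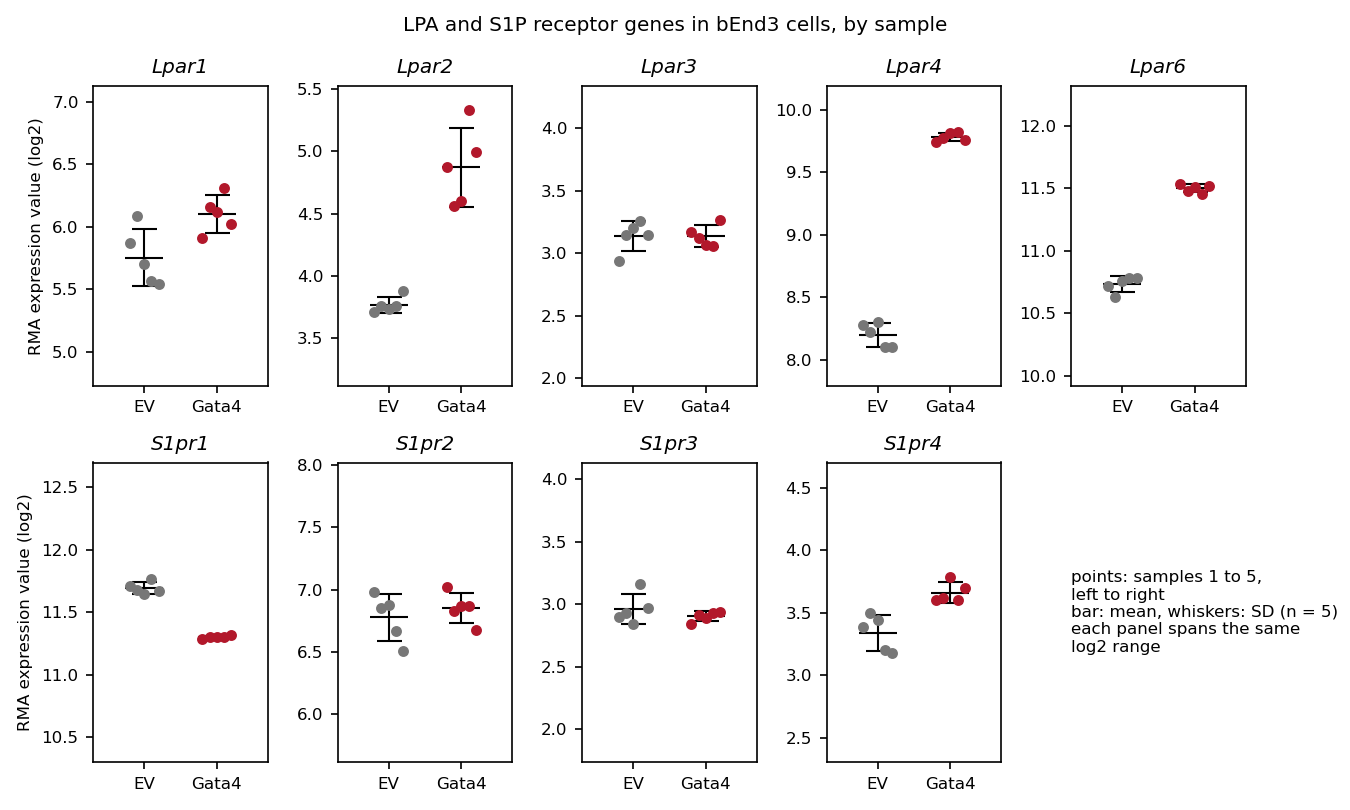
RMA expression value (log2, vertical axis) of each measured receptor gene in 5 EV and 5 Gata4 samples, with samples 1 to 5 from left to right in each group, the mean as a bar and the SD as whiskers. All panels span the same log2 range: Lpar2, Lpar4 and Lpar6 are higher and S1pr1 is lower in the Gata4 samples without overlap. S1pr4 is also higher without overlap, by a gap of 0.10 at a low level, and the groups of Lpar1 overlap. Lpar3, S1pr2 and S1pr3 lie at about the same height in both groups.

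Among the S1P receptor genes, 1 was past the threshold as higher (S1pr4, mostly inside the olfactory receptor range) and 1 as lower (S1pr1), beside 12.4% and 13.2% of all genes, with a median difference of 0.01. S1pr1, the main S1P receptor gene of endothelium, measured 11.71, 11.68, 11.65, 11.77 and 11.67 in EV samples 1 to 5. In Gata4 samples 1 to 5 it measured 11.29, 11.30, 11.30, 11.30 and 11.32. The groups did not overlap, and the Gata4 samples lay within 0.03 of each other. The means of 11.30 ± 0.01 and 11.69 ± 0.05 (SD, n = 5 each) differed by -0.39 ± 0.04 (SE), so the gene was 1.31-fold lower, a smaller difference than those of Lpar4, Lpar2 and Lpar6 in the opposite direction.

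S1pr2, whose product signals mainly through G12 and G13, measured 6.98, 6.85, 6.88, 6.67 and 6.51 in EV samples 1 to 5 and 7.02, 6.83, 6.87, 6.87 and 6.68 in Gata4 samples 1 to 5. The groups overlapped over most of their range. Their means, 6.78 ± 0.19 and 6.86 ± 0.12 (SD, n = 5 each), differed by 0.08 ± 0.09 (SE), and by 0.17 without EV samples 1 and 2. S1pr4, a receptor gene of lymphoid and myeloid cells, measured 3.18 to 3.50 in the EV samples (median 3.39) and 3.60 to 3.79 in the Gata4 samples (median 3.62). Its groups did not overlap, by a gap of 0.10, but most of these values lie inside the olfactory receptor range. The difference was 0.32 ± 0.07 (SE). S1pr3, which encodes a receptor coupled to Gi, Gq and G13, measured 2.84 to 3.16 in the EV samples (median 2.93) and 2.84 to 2.94 in the Gata4 samples (median 2.91), also inside that range and with overlap.

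Over all 9 measured receptor genes, 5 were past the threshold as higher, 1 as lower and 3 were not, and the groups did not overlap for 5. The shares over all genes were 12.4%, 13.2% and, without overlap, 21.1%; since this contrast chose the set, nothing is read from the counts. Levels of the receptor genes are read by different probes and were not ranked against each other; the median of all features serves only as a rough mark of low signal. Of the 9 genes, 3 (Lpar3, S1pr3 and S1pr4) had a mean over all 10 samples below the median of all features. Lpar2 lay above it only through its Gata4 samples, as its EV mean of 3.77 was below that median. Array scaling on the genes above the 25th percentile of levels changed none of these directions, but it could hardly have done so. The arrays already shared a distribution, and the scaling moved the median of all genes by -0.002 at most. Nothing is therefore read from it about these differences.

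Other receptors for lysophospholipids, which the choice of genes had not used, were measured near background, where a difference could hardly show. Of 9 measured genes, among them S1pr5, the receptor gene of natural killer cells and oligodendrocytes, and the lysophosphatidylserine receptor genes Gpr34 and P2ry10, 1 was higher and 0 were lower by limma. Over all genes these shares were 12.4% and 13.2%. At an unadjusted p under 0.05, and in the exact rank-sum test, that 1 gene alone was called. All 9 had means below the median of all features, and all but S1pr5 had group means of at most 3.67, the 95th percentile of olfactory receptor genes. S1pr5 measured 3.56 to 3.81 in the EV samples and 3.69 to 3.89 in the Gata4 samples, and its difference of 0.08 ± 0.06 (SE) did not pass (limma, adjusted p = 0.41; 95% interval -0.05 to 0.21). The 1 higher gene was Gpr119, a receptor gene for lysophosphatidylcholine and related lipids, with 3.09 ± 0.08 against 3.23 ± 0.02 (SD, n = 5 each). Both means are inside the olfactory receptor range, and the call (limma, adjusted p = 0.046) was lost without any 1 Gata4 sample or without EV sample 1, 3 or 4 (adjusted p of 0.061 to 0.11).

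The genes that lie beside the receptor genes did not share the large differences. For each receptor gene the nearest measured gene on either side and any overlapping gene were taken from the RefSeq gene order, 20 genes in all. Of these, 1 was higher, 4 were lower and 15 did not pass, and 13 of the 20 had means below the median of all features. Over all genes 12.4% were higher and 13.2% lower, together 25.6%, so nothing is read from these counts about the neighbours. Rtl3 and P2ry10, which flank Lpar4, had differences of 0.00 (limma, adjusted p = 0.99 and 1.0), with group means of 2.75 to 3.10 inside the olfactory receptor range. Lpar6 lies within the span of Rb1, the retinoblastoma tumour suppressor gene, and Rb1 fell while Lpar6 was higher. Rb1 measured 9.25, 9.17, 9.26, 9.26 and 9.32 in EV samples 1 to 5 and 8.97, 9.00, 8.99, 8.92 and 8.82 in Gata4 samples 1 to 5. The groups were apart, with a difference of -0.31 ± 0.05 (SE; limma, adjusted p = 0.00049). Itm2b, on the other side of Lpar6, had a difference of 0.08 that did not pass (limma, adjusted p = 0.34).

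Beside S1pr1, the clone-named gene A930005H10Rik fell by 0.38 ± 0.08 (SE, limma, adjusted p = 0.0042), with overlapping groups and so no call in the exact rank-sum test (adjusted p = 0.064). Olfm3 on the other side did not pass (limma, adjusted p = 0.22). Gmip, which lies beside Lpar2, rose by 0.34 ± 0.11 (SE; limma, adjusted p = 0.038). This call was lost without Gata4 sample 3, 4 or 5 or EV sample 3, 4 or 5 (adjusted p of 0.072 to 0.095), with array weights (0.051), with a replicate block (0.085) and in the exact rank-sum test (0.17). The other neighbours called were Dnmt1, the maintenance DNA methyltransferase gene beside S1pr2, and Ncln beside S1pr4, which fell by 0.15 and 0.21 (limma, adjusted p = 0.020 and 0.012). Without EV samples 1 and 2 both calls were lost (adjusted p = 0.098 and 0.071), and that of Dnmt1 also with a replicate block (0.066).

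**Figure D2:**
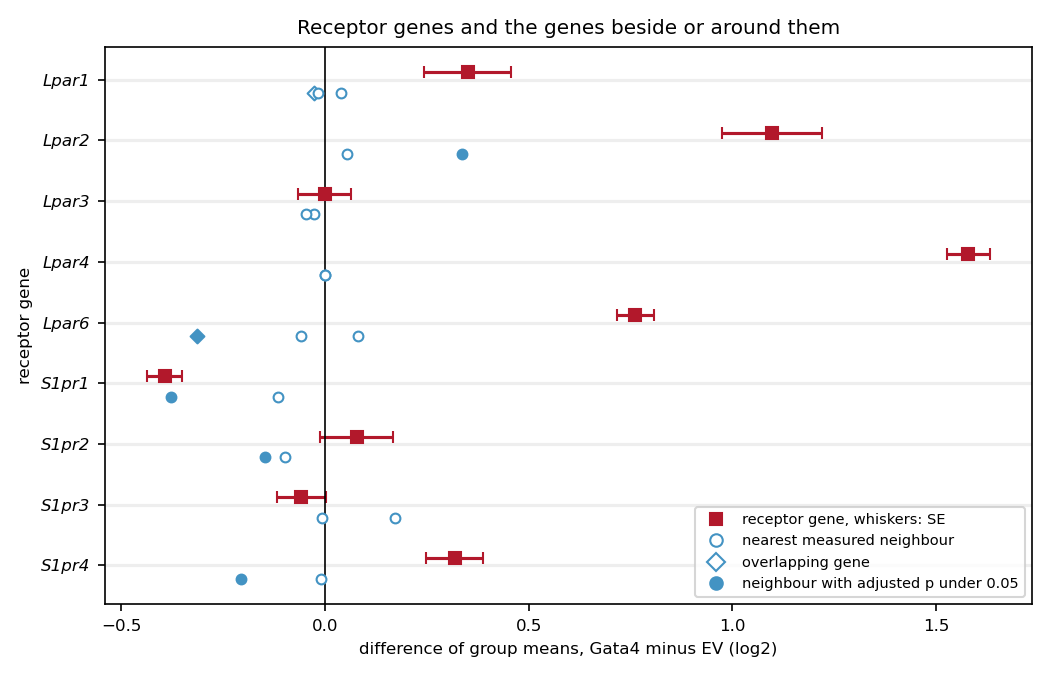
Difference of group means, Gata4 minus EV (log2, horizontal axis), of each receptor gene (square, whiskers are the SE) and of the genes next to it (circles) or overlapping it (diamonds), filled where the adjusted p was under 0.05; the 2 circles of Lpar4 coincide at 0. The differences of Lpar4, Lpar6 and Lpar2 stand apart from those of their neighbours, and the gene around Lpar6, Rb1, lies on the other side of 0.

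Genes of lipid supply and signalling around the receptors were taken from 8 lists with 211 measured genes, none of them a listed receptor gene. Of these, 44 were higher and 51 lower, together 45.0%, beside 25.6% of all genes, with a median of -0.01. Of the 23111 genes, 11583 had means below the overall median, as did 2 of the 37 genes of the serum response list and 22 of the 27 other lipid receptor genes, so the share called in a list and over all genes rest on unlike shares of low signals.

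Among 30 genes of LPA synthesis and breakdown, 4 were higher and 7 lower (median -0.02), together 36.7% beside 25.6% of all genes. Plpp3, which encodes a membrane phosphatase that breaks down LPA and S1P outside the cell, rose from 9.72 ± 0.09 to 10.42 ± 0.06 (SD, n = 5 each), or 1.63-fold (limma, adjusted p = 5.9e-07). Plpp1, a phosphatase gene of the same family, fell 1.37-fold. Acp6, an LPA phosphatase gene of mitochondria, had the largest fall of the list, with 10.18, 10.05, 10.69, 10.74 and 10.78 in EV samples 1 to 5 and 8.85 to 8.99 in the Gata4 samples. It was 2.96-fold lower (limma, adjusted p = 1.5e-06), and its difference of -1.56 became -1.81 without EV samples 1 and 2. Pla2g4a, the cytosolic phospholipase A2 gene, fell 1.92-fold, and the phospholipase D genes Pld2 and Pld1 rose by 0.51 and 0.26.

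Of 33 genes of S1P synthesis, transport and breakdown, 10 were higher and 8 lower (median 0.01), together 54.5% beside 25.6% of all genes. The ceramide synthase gene Cers6 rose 3.66-fold, from 4.98 ± 0.27 to 6.85 ± 0.12 (SD, n = 5 each). Acer3, an alkaline ceramidase gene whose enzyme releases sphingosine from ceramide, rose 3.05-fold, while Acer2, a ceramidase gene of the Golgi, fell 1.72-fold. The 2 sphingomyelin synthase genes moved in opposite directions. Sgms1 rose 2.44-fold, from 7.15 ± 0.12 to 8.44 ± 0.06, and Sgms2 fell 3.35-fold, from 9.30 ± 0.18 to 7.55 ± 0.05 (limma, adjusted p = 6.6e-09 and 4.0e-09). The efflux transporter gene Abcg2 fell 3.00-fold. Spns2, the S1P exporter gene of endothelium, and the sphingosine kinase genes Sphk1 and Sphk2 were chosen after their values were seen. Spns2 measured 9.62, 9.81, 9.48, 9.63 and 9.57 in EV samples 1 to 5 and 8.71, 8.87, 8.98, 8.95 and 8.89 in Gata4 samples 1 to 5, a fall by 0.74 ± 0.07 (SE; limma, adjusted p = 3.8e-06) without overlap. Sphk1 fell by 0.22 near background (3.53 against 3.75), and the difference of -0.15 of Sphk2 did not pass (limma, adjusted p = 0.15).

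Of genes of G proteins and their effectors, single genes are given and the counts of their list are not reported here. Plcb4, a phospholipase C gene activated by Gq, measured 7.83, 7.62, 7.84, 7.82 and 8.07 in EV samples 1 to 5 and 10.23 to 10.43 in the Gata4 samples. It rose 5.70-fold (limma, adjusted p = 1.0e-10). Gnai1, which encodes a Gi alpha subunit, measured 8.30 to 8.46 in the EV samples and 10.40 to 10.57 in the Gata4 samples, a 4.23-fold rise (limma, adjusted p = 2.1e-11). Pik3cg, the gene of the phosphoinositide 3-kinase driven by G protein beta and gamma subunits, rose 1.61-fold. The falls of Gng11, a gamma subunit gene, and Plcb1 were small, by 0.32 and 0.26 (limma, adjusted p = 0.00076 and 0.014). Gna13, which encodes the G13 alpha subunit, was chosen after its values were seen. Its difference of 0.04 did not pass (limma, adjusted p = 0.69), with a 95% interval of -0.08 to 0.17.

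Regulators of G protein coupled receptors included the largest falls of the signalling lists. Of 28 measured, 4 were higher and 6 lower (median 0.02), together 35.7% beside 25.6% of all genes. Rgs2, which encodes a protein that ends Gq signalling, measured 9.46, 9.55, 8.94, 9.04 and 8.88 in EV samples 1 to 5 and 5.49, 5.44, 6.0, 5.87 and 5.57 in Gata4 samples 1 to 5. It fell 11.3-fold (limma, adjusted p = 2.5e-09). Rgs16, a regulator gene for Gi and Gq, fell 9.30-fold, from 11.15 ± 0.12 to 7.93 ± 0.16 (SD, n = 5 each). Arrb2, the beta-arrestin 2 gene, whose product uncouples and internalises active receptors, rose 5.09-fold, from 6.0 ± 0.23 to 8.35 ± 0.16 (limma, adjusted p = 4.7e-09). Slc9a3r1, a gene for a scaffold protein with PDZ domains, rose 1.98-fold, and Magi3, whose scaffold protein binds LPAR2, fell 1.44-fold. Rgs5 rose by 0.32 inside the olfactory receptor range (3.13 to 3.45).

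The list of serum response and YAP target genes, a response in which LPA and S1P are the classical serum agonists, also holds 5 regulators, Srf, Mrtfa, Mrtfb, Yap1 and Wwtr1. Of its 37 measured genes, 20 were lower and 7 higher, so 54.1% were lower beside 13.2% of all genes, and the median was -0.29. Without the regulators, a count made after the values were seen, 18 of 32 were lower and 7 higher; Srf and Mrtfb had been among the 20. The list was read by its counts and was not tested as a list. Ptgs2, the cyclooxygenase 2 gene, fell 3.36-fold, Ccn1, a matricellular target gene of YAP, fell 2.93-fold from 12.43 ± 0.07 to 10.88 ± 0.17 (SD, n = 5 each), and Hbegf, a growth factor gene, fell 2.40-fold. In the opposite direction Ankrd1, another YAP target gene, rose 4.36-fold. Its EV samples 1 to 5 measured 10.18, 10.31, 9.26, 9.39 and 9.06 and its Gata4 samples 11.68 to 11.88, so that the EV samples split in the same way as on the second principal component. Without EV samples 1 and 2 its difference was 2.53 in place of 2.13. Thbs1, the thrombospondin 1 gene, rose 3.28-fold, and its difference of 1.71 was 2.01 without EV samples 1 and 2. The immediate early gene Fos rose 3.07-fold (limma, adjusted p = 0.00038), but its Gata4 samples were spread. Samples 1 to 3 measured 7.29, 6.91 and 7.34 and samples 4 and 5 measured 8.22 and 8.33, beside 5.64 to 6.43 in the EV samples. The related genes Fosb and Fosl1 of the list, chosen after their values were seen, fell by 1.11 and 1.26 (limma, adjusted p = 8.5e-06 and 6.0e-08). The YAP targets Ccn1 and Ankrd1 thus moved in opposite directions. Both were named for the size of their differences, so no direction of YAP targets as a set is read from them.

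**Figure D3:**
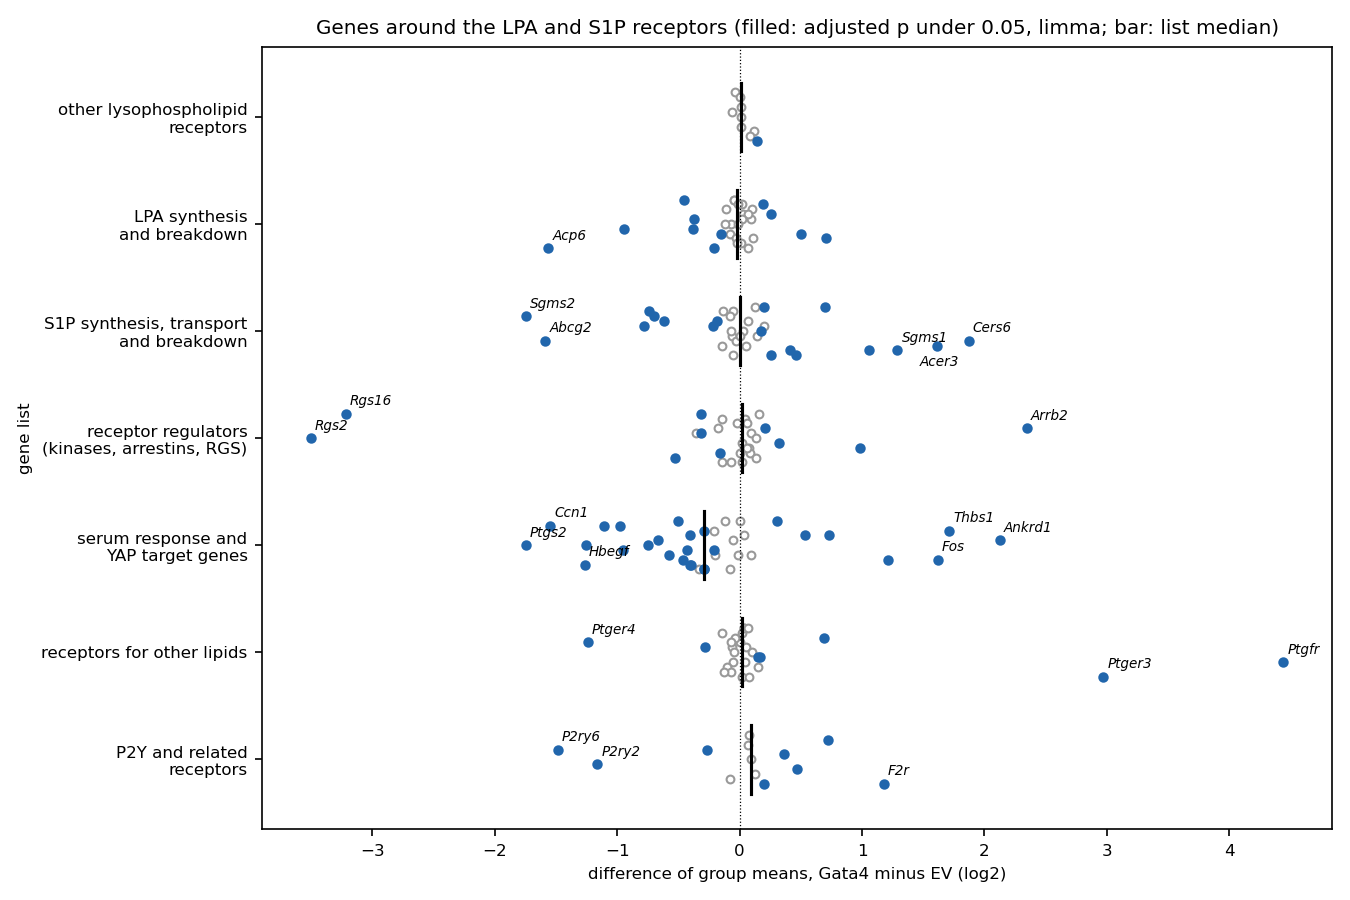
Difference of group means, Gata4 minus EV (log2, horizontal axis), of every measured gene in 7 of the lists around the receptors (vertical axis; the small vertical offsets carry no value), filled where the limma adjusted p was under 0.05, with the list median as a bar. The list of serum response and YAP target genes lies mostly below 0 (median -0.29), and single genes such as Ptgfr, Arrb2, Rgs2 and Rgs16 lie far from their lists.

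Receptors for other lipids and the relatives of LPAR4 and LPAR6 show how other families of lipid and nucleotide receptors fared in the same cells. Of 27 receptor genes for prostanoids, cannabinoids, fatty acids and other lipids, 5 were higher and 2 lower, together 25.9% beside 25.6% of all genes. Means below the median of all features were found for 22 of them. Ptgfr, the prostaglandin F receptor gene, rose 21.7-fold, from 4.43 to 5.37 in the EV samples to 9.39 to 9.50 in the Gata4 samples (limma, adjusted p = 1.2e-10). Ptger3, a prostaglandin E receptor gene coupled to Gi, rose from 3.71 ± 0.38 to 6.68 ± 0.23 (SD, n = 5 each), with most EV samples inside the olfactory receptor range, so that no exact fold is given, and Ptger1 rose 1.61-fold. Ptger4, a prostaglandin E receptor gene coupled to Gs, fell 2.36-fold. Tbxa2r, the thromboxane receptor gene, fell by 0.28 with overlapping groups. Its call (limma, adjusted p = 0.021) was lost without Gata4 sample 2 or 5 or EV sample 2 or 5 (adjusted p of 0.050 to 0.054), without EV samples 1 and 2 (0.089) and in the exact rank-sum test (0.11).

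Of 13 P2Y and related receptor genes, 5 were higher and 3 lower, together 61.5% beside 25.6% of all genes. F2r, which encodes the thrombin receptor PAR1, rose 2.26-fold, and P2ry1, an ADP receptor gene, rose 1.65-fold. F2rl3, the PAR4 gene, rose 1.39-fold, with overlapping groups and so no call in the exact rank-sum test (adjusted p = 0.064). P2ry6 and P2ry2, genes of uridine nucleotide receptors, fell 2.80-fold and 2.24-fold. F2rl2 fell by 0.27 inside the olfactory receptor range. No test of one family against another was made.

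Genes with the most similar course over the 10 samples were sought for the receptor genes with a difference of at least 1, Lpar4 and Lpar2, as the smallest root mean square difference between values centred on each gene's mean. For Lpar4 these were Acer3 (0.09), the ceramidase gene above, Pcgf5 (0.09), which encodes a subunit of a Polycomb complex, and Cmas (0.10), which encodes the enzyme that activates sialic acid. They rose 3.05-fold, 3.13-fold and 3.37-fold. For Lpar2 they were Ntng2 (0.14), the netrin G2 gene, the synaptic vesicle protein gene Svop (0.14) and the MHC class I gene H2-T24 (0.15), which rose 1.94-fold, 2.20-fold and 1.96-fold. Like Lpar2 they were highest in Gata4 sample 4, a likeness that the choice by similar course favours. The step between the groups carries most of this likeness.

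**Figure D4:**
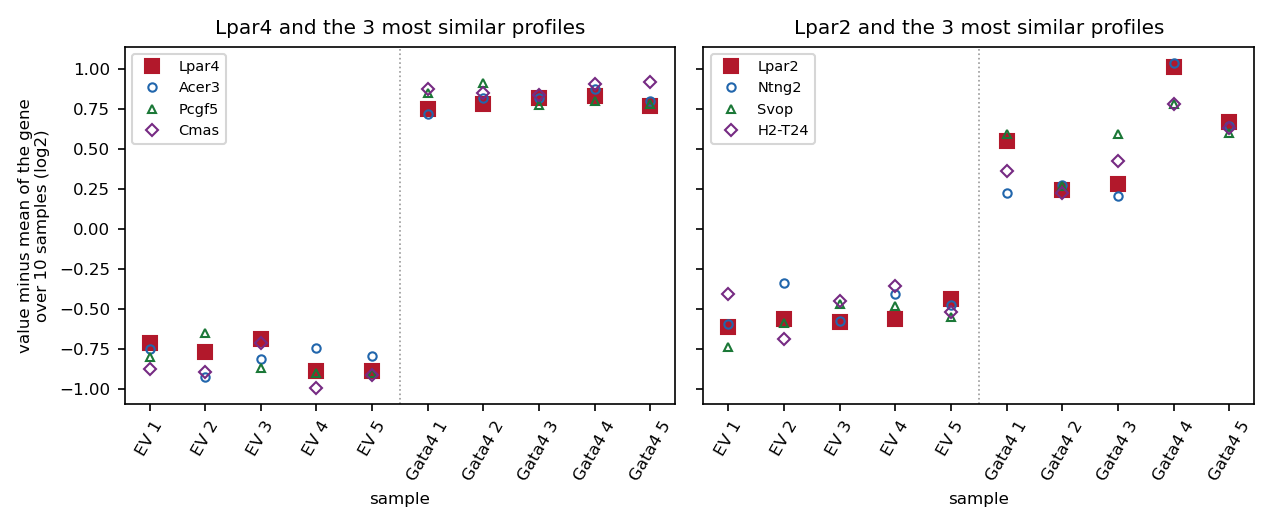
Values of Lpar4 (left) and Lpar2 (right) and of the 3 genes with the most similar course, each minus its mean over the 10 samples (log2, vertical axis), by sample (horizontal axis). In the Lpar4 panel the spread within each group is small beside the step between the groups. The Lpar2 panel spreads more among the Gata4 samples, with sample 4 the highest for all 4 genes.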

How the data were processed

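Expression was deposited as log2 values, computed with RMA per the submitters' processing notes. No version of RMA, probe annotation or build is given in the sources used here. It has 23748 features and 10 columns, 1 per sample. Gene symbols came from the platform annotation (23111 features with 1 symbol, 637 without one here). RMA equalises the arrays, so changes are relative to other genes, and values near the low end may be background. For arrays the number of samples, 5 per group, limits the precision.

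Groups were compared with limma 3.58.1 in R 4.3.3 (lmFit and eBayes, no trend) over all named genes, with Benjamini-Hochberg adjustment at 0.05; the fit was tested on simulated data. The receptor genes, the lists and the tests were chosen with earlier results of these data known. Named genes were the receptor genes, Gata4, S1pr5, up to 3 called genes per list and direction, the neighbours and the similar profiles; others are marked as chosen after their values were seen. The olfactory receptor range and leaving out EV samples 1 and 2 were added after seeing the data. Promoter windows came from RefSeq tables (GRCm38.p6). Alternatives comprised leaving out each sample, a replicate block, a trend and robust prior, 2 filters on low levels, array weights and an exact rank-sum test. Within groups arrays correlated at 0.9964 to 0.9977, and 0 pairs of columns were identical. Some results on 1 of the 8 lists are not reported here.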

Additional observations from a re-analysis of the deposited data

Results flagged for a closer look

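Each group of 5 samples was examined for a sample far from the others, for 63 of the genes whose differences are reported (126 groups). In 1 group a sample stood out: Plcb1, a phospholipase C gene, measured 7.89 in EV sample 1, while the other EV samples lay between 7.51 and 7.61. The gap was 0.732 of the range, against a limit of 0.71 that chance passes in about 5% of groups. Without that sample the fall of Plcb1 was 0.19 in place of 0.26 on the log2 scale.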

How the results depend on the processing

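The number of genes called, 5915, lay between 5367 and 5643 when any 1 sample was left out, at 5097 without EV samples 1 and 2 and at 6104 with a trend and robust prior. In the exact rank-sum test it was 4865, the number of genes whose groups did not overlap. Of the pathway genes, 39 to 42 were higher and 46 to 51 lower with 1 sample left out. Deviations of same-numbered samples correlated weakly, at -0.018 to 0.087, although 6 of 10 samples correlated best with their own number, a hint from the data and not the design; the numbers were not taken to pair the samples. With a replicate block 5644 genes were called, 39 pathway genes higher and 50 lower. The 126 recomputed differences of the receptor genes included 0 that moved by as much as the SD pooled over both groups and 0 past the threshold that changed sign. Leaving out 1 of 5 samples cannot move a group mean by that SD, and a replicate block leaves each difference unchanged here. Array scaling moved the median of all genes by -0.002 at most. For these settings the first 0 was fixed in advance or nearly so, and it says little of stability. Some differences, such as that of Lpar1 without EV samples 1 and 2 (0.50 for 0.35), moved by more than the SD of the Gata4 group alone. Of 913 recomputed differences of 54 other named genes, 37 lost their call, in 9 genes, and 0 changed sign. The causes were not tested. Levels near the olfactory receptor range, as for Lpar2, Lpar3, S1pr3 and S1pr4, limit what can be measured.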

Other observations

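The EV samples did not vary alike for all receptor genes. Lpar1 was highest in EV samples 2 and 1 (6.09 and 5.87) and lowest in samples 4 and 5 (5.57 and 5.54), whereas Lpar6 was lowest in EV samples 2 and 1 (10.63 and 10.72) and highest in samples 4 and 5 (both 10.78). S1pr2, S1pr4 and Lpar4 were lowest in EV samples 4 and 5 as well. Lpar1 and Lpar6 are named because they were the most opposed of 36 pairs of receptor genes. Their deviations from the group means correlated at -0.964 over the 10 samples, while the 36 pairs had a median of -0.155 and a highest value of 0.855. The EV range of Lpar1, 0.55, exceeded its group difference of 0.35, while that of Lpar6, 0.15, was below its group difference of 0.76. Whether they follow the split of the EV samples on the second principal component was not tested.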
